A study of Mus musculus with 8 samples.

Results

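The 10 genes that make up this set are ones that healthy β-cells keep at a low level, and that are therefore called disallowed. They were followed in MIN6 cells, an insulin-producing line from a mouse pancreatic tumour, with and without a plasmid that expresses the zinc-finger transcription factor Klf4. The members were chosen by symbol in the table of counts per gene: Ldha, Slc16a1, Hk1, Hk2, Pdgfra, Igfbp4, Oat, Acot7, Maf and Mgst1, 10 of the 55536 genes listed. Of these, 8 passed the filter on low counts and were tested, and 2, Maf and Mgst1, did not pass it. Control cultures were given pcDNA 3, which carries no insert, and treated cultures pGloMyc-Klf4. By their names the plasmids differ in backbone as well as in Klf4, and the effects of the 2 differences cannot be told apart. All cells were MIN6 of genotype WT, transfected with the lipid reagent Lipofectamine 3000 for 48 h, and each group had 4 libraries of polyadenylated RNA, described as biological replicates. Replicates 1 and 2 of both groups carried the batch label 1 and replicates 3 and 4 the batch label 2. The extraction text speaks of islets, but every sample was labelled Min6 and was treated as such. MIN6 is 1 tumour-derived line, so its levels are those of dividing cells and not of β-cells in an islet.

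A β-cell releases insulin in proportion to glucose, because the pyruvate made from glucose is burned in mitochondria to make ATP. Lactate dehydrogenase A would divert pyruvate to lactate, the monocarboxylate transporter encoded by Slc16a1 would let circulating pyruvate or lactate into the cell, and the high-affinity hexokinases encoded by Hk1 and Hk2 would run at low glucose. Mature β-cells hold these genes down, as they do a number of genes outside glycolysis such as Pdgfra, the receptor through which platelet-derived growth factor drives proliferation in young β-cells.

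In these cells the 10 genes did not move as a block. Hk2 and Pdgfra rose from a few counts per library to clearly measured but low levels, Acot7 rose by 2.06-fold from a low level, and Slc16a1 rose by 1.18-fold from a moderate one. Ldha, Hk1, Igfbp4 and Oat did not pass the test, Maf did not pass the filter on low counts, and Mgst1 had no count in any library. With an adjusted p under 0.05 as the threshold (edgeR's quasi-likelihood test with terms for batch and plasmid, Benjamini-Hochberg adjustment over 18266 genes), 4 of the 10 members were called higher and 0 lower (0 lower also at an unadjusted p under 0.05), 4 did not pass the test and 2 were not tested. DESeq2 and limma-voom also called 4 higher and 0 lower. Hk2 and Pdgfra passed the filter only through the Klf4 libraries, in which they are high, so the split of higher against lower calls describes these genes and is not a result about the set. Across all tested genes the same test called 36.6%, 21.1% higher and 15.5% lower. The same 4 members were those in which every Klf4 library lay above every control library, which held for 17.2% of all tested genes; 8.93% lay apart in the lower direction and 26.1% in either. The difference of the effect between batches passed the test in no member (0 with an adjusted interaction p under 0.05 and 0 at an unadjusted p under 0.05, edgeR), and in 0.766% of all tested genes.

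Klf4 binds DNA motifs built around CACCC. The stretches of 250 bases before the start sites of the 4 genes called higher are shown here, and beside them 1 of Hk1, which did not pass the test. The sequences are those of RefSeq on GRCm38.p6, written along the strand of the gene, with each CACCC or its reverse complement GGGTG in capitals and all other bases in lower case.
Hk2 chr6:82774455-82774704 minus strand: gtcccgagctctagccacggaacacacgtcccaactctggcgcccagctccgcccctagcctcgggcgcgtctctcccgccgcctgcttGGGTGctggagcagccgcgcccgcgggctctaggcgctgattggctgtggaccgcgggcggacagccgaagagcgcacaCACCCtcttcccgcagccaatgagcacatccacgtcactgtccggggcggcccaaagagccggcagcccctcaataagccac
Pdgfra chr5:75152001-75152250 plus strand: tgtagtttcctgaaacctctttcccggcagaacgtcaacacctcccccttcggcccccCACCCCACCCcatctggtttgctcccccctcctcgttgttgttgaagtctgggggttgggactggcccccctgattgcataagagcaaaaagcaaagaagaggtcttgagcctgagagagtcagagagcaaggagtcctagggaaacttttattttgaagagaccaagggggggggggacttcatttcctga
Acot7 chr4:152185358-152185607 plus strand: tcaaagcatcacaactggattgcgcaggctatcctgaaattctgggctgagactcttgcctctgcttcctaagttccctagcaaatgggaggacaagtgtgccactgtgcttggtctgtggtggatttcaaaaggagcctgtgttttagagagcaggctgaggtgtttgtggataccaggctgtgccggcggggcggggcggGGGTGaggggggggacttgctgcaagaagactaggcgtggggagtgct
Slc16a1 chr3:104638414-104638663 plus strand: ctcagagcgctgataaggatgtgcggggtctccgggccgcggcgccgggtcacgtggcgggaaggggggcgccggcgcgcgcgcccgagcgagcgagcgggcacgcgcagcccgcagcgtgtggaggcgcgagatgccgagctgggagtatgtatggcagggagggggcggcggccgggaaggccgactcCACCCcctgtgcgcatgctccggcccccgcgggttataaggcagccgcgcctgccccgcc
Hk1 chr10:62379909-62380158 minus strand: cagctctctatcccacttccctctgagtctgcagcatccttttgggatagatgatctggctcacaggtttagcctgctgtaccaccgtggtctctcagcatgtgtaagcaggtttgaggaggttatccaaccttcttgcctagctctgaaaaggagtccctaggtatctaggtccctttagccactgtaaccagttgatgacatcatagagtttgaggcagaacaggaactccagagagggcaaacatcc
Hk2 had 2 matches, at 161 and 82 bases before the start, and Pdgfra had 2 adjoining ones, at 192 and 187. Acot7 had 1 match, at 48, before a start site that lies inside the annotated gene, and Slc16a1 had 1, at 60. The Hk1 window shown had none, while a window at another Hk1 start, which overlaps annotated exons, had 4. Ldha, Oat and Igfbp4, which did not pass the test either and are not shown, had windows with 1, 2 and 1 matches. In all, 9 of the 10 members matched the RefSeq table, with 12 windows, and all 9 had a match in at least 1 window; 9 of the 12 windows had one. Of all 32851 windows of this length, 52% held at least 1 match and 21.1% at least 2, so the motif is common; a match describes the sequence and does not mark a binding site.

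**Figure D1:**
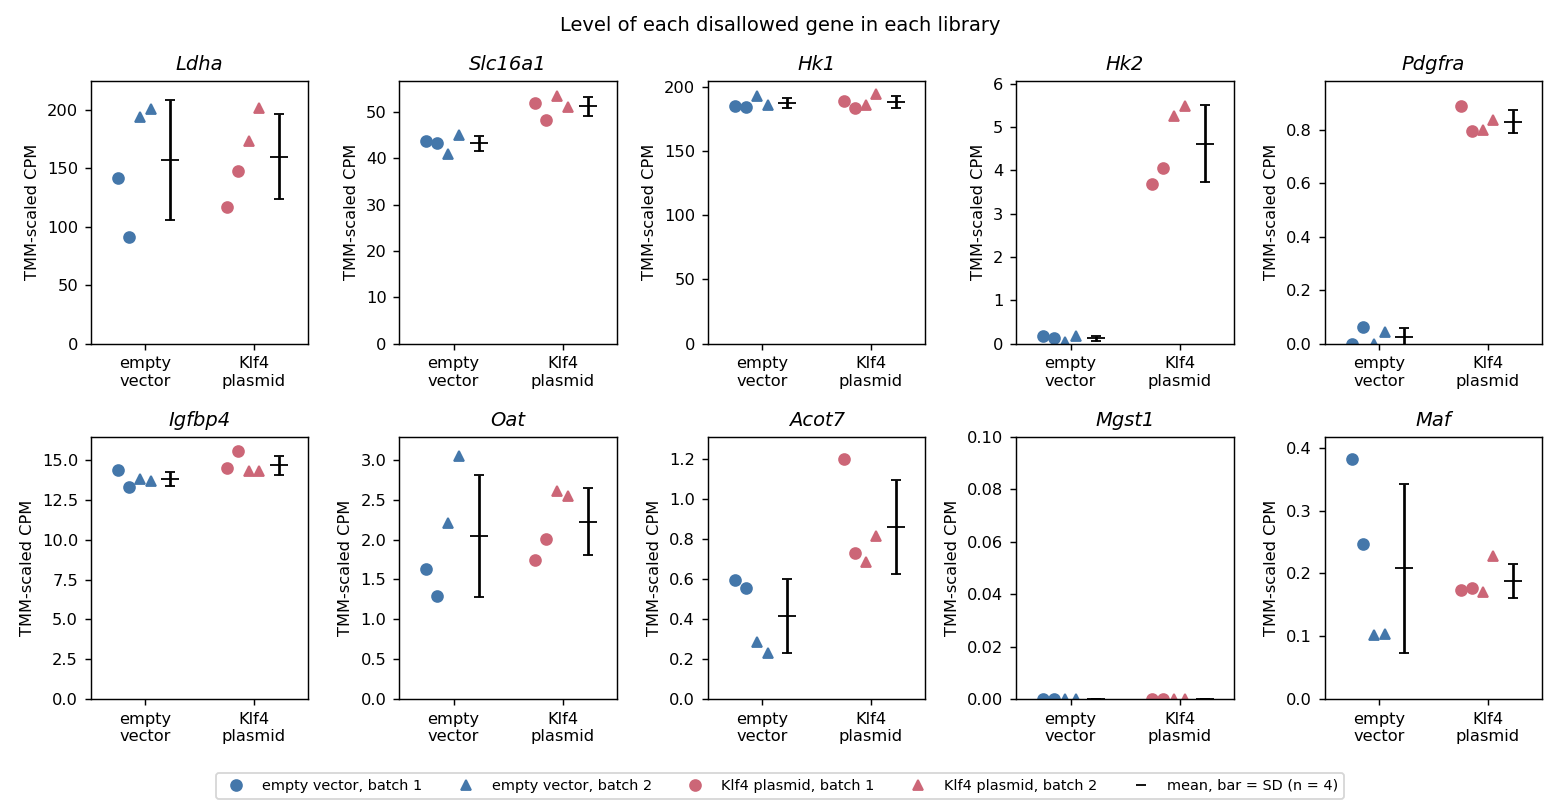
Level of each of the 10 genes in TMM-scaled CPM (vertical axis, its own linear scale from 0 in each panel) in the 4 empty-vector and 4 Klf4-plasmid libraries; circles are batch 1, triangles batch 2, and the bar is the mean with its SD (n = 4). The 2 groups are apart in Slc16a1, Hk2, Pdgfra and Acot7, while in Ldha and Oat the batches are apart and the groups overlap.

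The depth was 45417853 to 52731176 counts per library, with means of 48354814 ± 1031570 (SD, n = 4) in the control and 50600628 ± 3472206 (SD, n = 4) in the Klf4 libraries (two-sided exact permutation test, p = 0.229, smallest possible 0.0286). Levels are given as CPM, a gene's share of the counts scaled to a common total, with TMM factors that correct for the composition of a library and were 0.996 to 1.005 here. The plasmid gene itself stood at 40.1 ± 3.11 CPM (SD, n = 4) in the control and 5040 ± 567 CPM (SD, n = 4) in the Klf4 libraries, a log2 fold change of 6.97 ± 0.07 (SE, edgeR quasi-likelihood test, adjusted p = 1.21e-25), and all 4 Klf4 libraries were above all controls. Counts cannot separate the transfected from the cells' own Klf4. All 10 β-cell markers listed were measured, at a summed 25331 to 32108 CPM in the control and 23657 to 32362 CPM in the Klf4 libraries. Of the 10, 5 were called lower, Mafa among them, and 0 higher, with a median log2 fold change of -0.07. Of all tested genes 15.5% were called lower. Neither Ins1 nor Ins2 passed the test. Because these are bulk libraries, a higher level in all cells and a larger share of cells that express a gene cannot be told apart. The share of cells that took up a plasmid is not given in the sources used here.

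Within one library, levels of different genes are compared per kilobase (kb) of annotated exon. In the control libraries the order was Ldha, Hk1, Slc16a1, Igfbp4, Oat, Acot7, Maf, Hk2, Pdgfra and Mgst1, from 47.3 ± 15.5 CPM per kb for Ldha to 0 for Mgst1 (SD, n = 4). Neighbours in that order did not overlap in their ranges over libraries, except Maf with Hk2 and Pdgfra with Mgst1. Ldha was above 94.5% of all tested genes on this scale, Hk1 above 86.3% and Slc16a1 above 71.2%, so these 3 metabolic genes were well measured in this line. Hk2, in contrast, was above 2.38% and Pdgfra above 0.723%. With the Klf4 plasmid Hk2 moved up to the neighbourhood of Oat, with overlapping ranges, and Pdgfra moved above Maf. The first 5 genes kept their order.

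Hk2, the hexokinase of muscle, fat and tumours that docks on mitochondria, rose from at most 8 counts per library to at least 183 (ENSMUSG00000000628, chr6:82725025-82774454, minus strand, GRCm38). The control libraries 1 to 4 had 8, 6, 2 and 8 counts, and the Klf4 libraries had 190, 183, 276 and 289. In CPM these were 0.170, 0.123, 0.0406 and 0.166 against 3.68, 4.04, 5.25 and 5.48. The lowest Klf4 library was far above the highest control, and within the Klf4 group both libraries of batch 2 were above both of batch 1. The means were 0.125 ± 0.0600 and 4.61 ± 0.886 CPM (SD, n = 4), and the ratio of the summed counts was 37.4, with a 95% interval of 24.95 to 58.6 for counting error only. The log2 fold change was 5.18 ± 0.23 (SE, adjusted p = 1.70e-14), and 4.69 and 5.69 in separate fits of batch 1 and batch 2. The difference between batches, taken from the interaction term of the joint fit, did not pass the test (0.98, adjusted p = 0.633). By size of log2 fold change Hk2 ranked 301 of the 18266 tested genes, and 439 genes, 2.4%, were called higher with a log2 fold change of at least 4.

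Hk1, the housekeeping hexokinase, did not pass the test (ENSMUSG00000037012, chr10:62268855-62379908, minus strand). Its control libraries stood at 185, 184.5, 193 and 186 CPM and its Klf4 libraries at 189, 183, 186 and 194 CPM. The groups overlapped and the spread was narrow, with means of 187 ± 3.87 and 188 ± 4.72 CPM (SD, n = 4). The log2 fold change was 0.01 ± 0.03 (SE, adjusted p = 0.853), 0.01 in batch 1 and 0.02 in batch 2. Of its exons, 157 bases overlap the antisense gene Hk1os.

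Hk1, Hk2, Hk3 and Hkdc1 can be set on one scale as shares of their summed CPM per kb. Hk1 made up 88.2% to 89.5% in the control and 84.0% to 88.0% in the Klf4 libraries. Hk2 went from between 0.0266% and 0.117% to between 2.44% and 3.41%, so after its rise it was still a minor part of the 4. Hkdc1, a further hexokinase-like gene, held 9.52% to 10.9% and 8.41% to 11.6%, and Hk3 held 0.729% to 1.40% and 0.936% to 1.34%. Neither Hkdc1 (log2 fold change -0.01, adjusted p = 0.962, above 0 with factors from highly expressed genes) nor Hk3 (0.24, adjusted p = 0.475) passed the test.

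**Figure D2:**
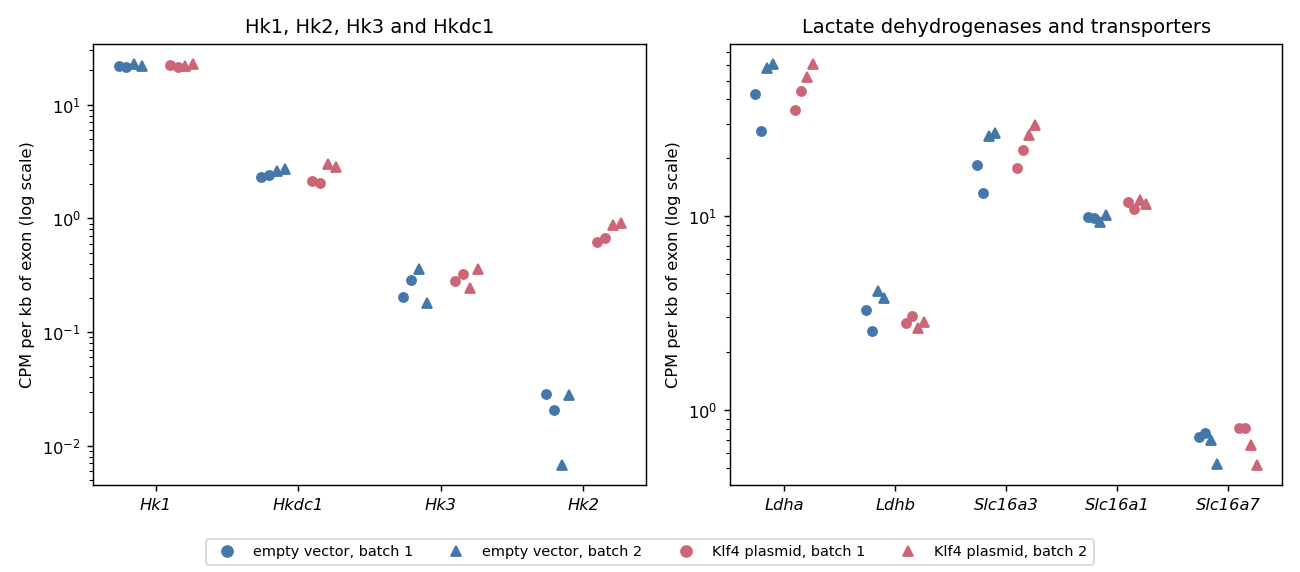
CPM per kb of exon (log axis) of Hk1, Hk2, Hk3 and Hkdc1 at left and of lactate dehydrogenases and monocarboxylate transporters at right, 1 point per library, circles for batch 1 and triangles for batch 2. Hk2 moves up from the bottom of the 4 genes to a mean of 0.773 in the Klf4 libraries, below Hk1 at 22.1; in Ldha and Slc16a3 the batch 2 libraries lie above batch 1 in both groups.

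Few of the other genes of glycolysis passed the test. Of 19 listed, Hkdc1 and Hk3 among them, all were tested and 1 was called higher and 0 lower (0 lower also at an unadjusted p under 0.05, and by DESeq2 and limma-voom), with a median log2 fold change of 0.00. The called gene was Pfkp, the platelet form of phosphofructokinase, with 186 ± 34.8 CPM in the control and 242 ± 40.2 CPM in the Klf4 libraries (SD, n = 4), a log2 fold change of 0.39 ± 0.05 (SE, adjusted p = 3.07e-07); its exons overlap Pitrm1. Pkm, pyruvate kinase, the highest of the list per length, had a log2 fold change of -0.06 (adjusted p = 0.145). It was called lower without control replicate 2 (-0.11, adjusted p = 0.00428), without Klf4 replicate 2 (-0.10, adjusted p = 0.00639), in batch 2 alone (-0.12, adjusted p = 0.00292) and with no filter (-0.07, adjusted p = 0.00175).

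Ldha, the lactate dehydrogenase subunit that favours lactate, was the highest member and the one that varied most in absolute terms (ENSMUSG00000063229, chr7:46841475-46855627, plus strand). The control libraries had 142, 90.7, 193 and 201 CPM and the Klf4 libraries 116, 147, 173 and 202 CPM. All 4 libraries of batch 2 were above all 4 of batch 1, and within each batch the groups overlapped. The means were 157 ± 51.2 and 159.5 ± 36.4 CPM (SD, n = 4), and the log2 fold change of 0.05 ± 0.09 (SE) did not pass the test (adjusted p = 0.720). In batch 1 it was 0.18 (adjusted p = 0.276) and in batch 2 -0.06 (adjusted p = 0.379). Leaving out control replicate 2, the lowest library, gave -0.10 (adjusted p = 0.119). Among the lactate dehydrogenases Ldha held 91.4% to 94.1% of the summed CPM per kb in the control and 92.6% to 95.5% in the Klf4 libraries. Ldhb, the heart-type subunit, had a log2 fold change of -0.27 (adjusted p = 0.0758).

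The order of the libraries in Ldha was also found in some other genes of glycolysis, and how many of those listed share it is not given. From lowest to highest it ran control 2, Klf4 1, control 1, Klf4 2, Klf4 3, control 3, control 4 and Klf4 4, and Pgk1 (phosphoglycerate kinase) and Aldoa (aldolase), chosen after their values were seen, had the same order. Pgk1 had 509, 426, 637 and 644 CPM in the control and 480, 523, 598 and 653 CPM in the Klf4 libraries. Bnip3, a hypoxia-response gene chosen in the same way, was also lowest in control 2, but its full order differed from that of Ldha. It had 95.7, 72.2, 122 and 125 CPM in the control and 86.8, 97.3, 109.7 and 119 CPM in the Klf4 libraries. Of 13 listed hypoxia-response genes 12 were tested, 5 were called higher and 1 lower, with a median log2 fold change of 0.05, also with Epas1, which had no control count, at its lower bound. Among the called genes, Ndufa4l2 had 0.786 ± 0.0770 CPM in the control and 10.5 ± 2.44 CPM in the Klf4 libraries (SD, n = 4), a log2 fold change of 3.74 (adjusted p = 5.49e-17), with exons overlapping Shmt2, and Ddit4 fell by 0.14 on the log2 scale (adjusted p = 0.00161). Vegfa, the highest per length, had -0.04 (adjusted p = 0.382). The part of such a shared variation between libraries in the Ldha values was not tested.

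Slc16a1, the monocarboxylate transporter MCT1, rose slightly but evenly (ENSMUSG00000032902, chr3:104638668-104658462, plus strand). The control libraries had 43.7, 43.3, 41.0 and 44.96 CPM, the Klf4 libraries 52.1, 48.4, 53.4 and 51.1 CPM. All 4 Klf4 libraries were above all 4 controls, and the batches were not apart. The means were 43.3 ± 1.64 and 51.2 ± 2.11 CPM (SD, n = 4), and the log2 fold change was 0.24 ± 0.04 (SE, adjusted p = 4.49e-05), 0.20 in batch 1 and 0.29 in batch 2.

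Slc16a3, which encodes the lactate exporter MCT4, was higher per length than Slc16a1, at 21.1 ± 6.48 CPM per kb in the control and 23.8 ± 5.17 in the Klf4 libraries (SD, n = 4), against 9.77 ± 0.370 and 11.6 ± 0.478 for Slc16a1. Its libraries were apart by batch as those of Ldha were, from 70.1 to 117 CPM in batch 1 and 138 to 157 CPM in batch 2. Its log2 fold change was 0.20 ± 0.08 (SE, adjusted p = 0.0417), and the call was lost in 9 of 19 alternatives, among them the replicate number as a block (adjusted p = 0.0715), DESeq2 (adjusted p = 0.277) and limma-voom (adjusted p = 0.0536). Without control replicate 2 it was 0.07 (adjusted p = 0.258) and without Klf4 replicate 2 it was 0.10 (adjusted p = 0.253); the call was also lost without control replicate 3 (adjusted p = 0.0824) and without Klf4 replicate 4 (adjusted p = 0.130). Of 19 listed genes of lactate and pyruvate handling 16 were tested, 3 were called higher and 4 lower, with a median log2 fold change of -0.02. Pdk2, a kinase that switches pyruvate dehydrogenase off, rose from 18.1 ± 2.11 CPM to 35.6 ± 2.54 CPM (mean ± SD of 4 libraries), by 0.97 ± 0.05 SE on the log2 scale (adjusted p = 4.22e-13). Pdk3, another such kinase, fell by 0.18 (adjusted p = 0.000837). Bsg, the chaperone that carries MCT1 and MCT4 to the membrane and the highest of the list per length, had 0.02 (adjusted p = 0.717). Of 10 genes of the shuttles that carry the electrons of cytosolic NADH into mitochondria, all tested, 2 were called higher and 4 lower, with a median log2 fold change of -0.07. Among them Got1, cytosolic aspartate aminotransferase, fell by 0.14 (adjusted p = 0.00141) and Gpd1l rose by 0.13 (adjusted p = 0.00658).

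Pdgfra, the receptor for platelet-derived growth factor (PDGF), went from at most 3 counts per library to between 36 and 46 (ENSMUSG00000029231, chr5:75152292-75198215, plus strand). The control libraries had 0, 3, 0 and 2 counts and the Klf4 libraries 46, 36, 42 and 44. In CPM the latter were 0.890, 0.795, 0.799 and 0.834, whereas no control was above 0.0616, which is at about the level of 3 counts in 1 library (0.0569 to 0.0663 CPM). The groups were far apart, yet the Klf4 level of 0.830 ± 0.0441 CPM (SD, n = 4), or 0.0828 CPM per kb, was still the lowest of the tested members. The ratio of summed counts was 32.1 with a 95% interval of 13.5 to 100.2 for counting error only, and the log2 fold change was 4.88 ± 0.50 (SE, adjusted p = 4.14e-08), 4.64 in batch 1 and 5.17 in batch 2. The order of Pdgfra and Hk2 by size of rise was not fixed: their counting intervals overlap, and without control replicate 2 Pdgfra had 5.66 and Hk2 5.23. Of its exons, 652 bases overlap Gm42802 and Gm42803 on the other strand and Mir7025, and the strand setting of the counting is not given in the sources used here.

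Ligands of this receptor rose too. Of 6 other genes of the PDGF system 4 were tested, 3 were called higher and 0 lower, with a median log2 fold change of 1.26. At an unadjusted p under 0.05 (edgeR), 1 was lower, and DESeq2 and limma-voom called 0 lower. Of all tested genes 21.1% were called higher. Pdgfb had 0.404, 0.452, 0.223 and 0.435 CPM in the control and 8.17, 8.62, 11.1 and 12.7 CPM in the Klf4 libraries, a log2 fold change of 4.73 ± 0.16 (SE, adjusted p = 1.05e-16). Pdgfa rose from 10.03 ± 0.510 CPM to 22.7 ± 2.59 CPM (mean ± SD of 4 libraries), by 1.17 ± 0.07 SE on the log2 scale (adjusted p = 2.41e-12). Pdgfrl, a receptor-like gene and the highest of the list per length, had -0.15 (adjusted p = 0.0758), and was called lower without control replicate 1 (-0.20, adjusted p = 0.0286). The β receptor, Pdgfrb, had 7 counts over the control and 42 over the Klf4 libraries and was not tested.

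Pdgfra also marks fibroblasts and stellate cells, so their other markers are given beside it. Of 10 listed, 4 were tested and 3 were called higher, and their summed level was 4.39 to 5.84 CPM in the control and 23.4 to 30.1 CPM in the Klf4 libraries. Most of that came from Dcn (decorin), which went from 9 to 3595 summed counts, and Col1a1 rose by 1.07 and Thy1 by 0.93 on the log2 scale (adjusted p = 3.51e-07 and 1.17e-05). Col1a2 did not pass the test (0.09, adjusted p = 0.734). Some of the listed markers that were not tested were at or near 0 in both groups. Lum had 0 counts, Col3a1 2 in the control and 3 in the Klf4 libraries, Acta2 1 and 0, and Postn 6 and 7. Pdgfrb, given above, is also on this list, was not tested either and had more counts in the Klf4 libraries. Some markers of other lineages also rose. Keratinocyte markers, 2 of 3 tested called higher, summed to 4.01 to 4.44 CPM in the control and 22.6 to 34.4 CPM in the Klf4 libraries, with Ivl at 0. Endothelial markers, 2 of 4 tested called higher, summed to 13.6 to 17.0 and 18.7 to 21.6 CPM. Cdh5 of the endothelial list had no control count, and Dcn had 9 in all. Both therefore passed the filter only through the Klf4 libraries, in which they are high. Across all tested genes 21.1% were called higher, and these counts of calls are not a result about the lists. The part of these changes in the Pdgfra result was not tested.

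**Figure D3:**
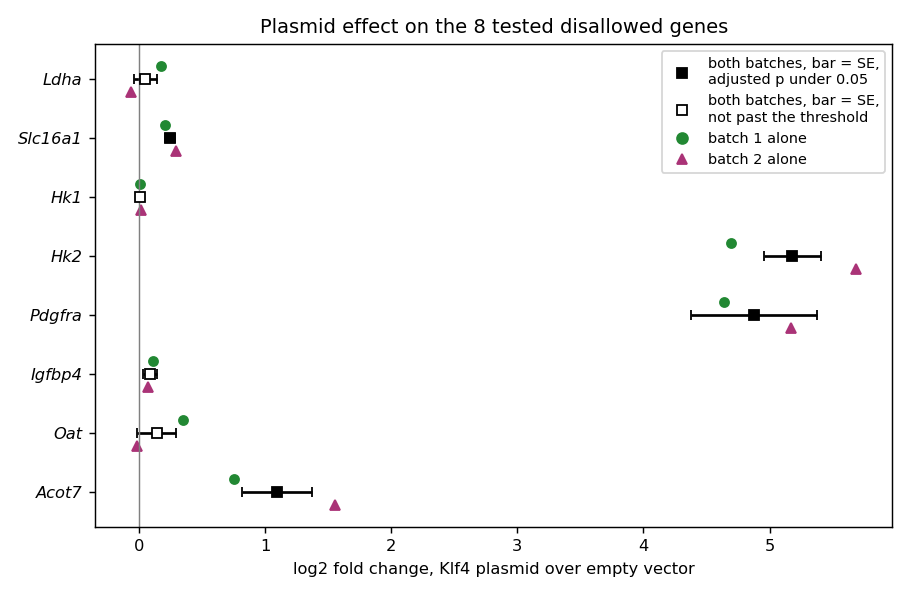
Log2 fold change of the Klf4 plasmid over the empty vector (horizontal axis) for the 8 tested members; squares are the fit over both batches with the SE as bar, filled where the adjusted p is under 0.05, green circles are batch 1 alone and purple triangles batch 2 alone. Hk2 and Pdgfra lie at 5.18 and 4.88, Acot7 at 1.09 with its batches at 0.75 and 1.55, Slc16a1 at 0.24, and the other 4 between 0.01 and 0.14.

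Acot7, a brain-rich thioesterase that frees long-chain fatty acids from coenzyme A, was low in both groups (ENSMUSG00000028937, chr4:152178134-152271855, plus strand). It had 28, 27, 14 and 11 counts in the control and 62, 33, 36 and 43 in the Klf4 libraries. In CPM these were 0.595, 0.555, 0.284 and 0.228 against 1.20, 0.729, 0.685 and 0.815. The lowest Klf4 library was only just above the highest control, and the controls of batch 2 were below those of batch 1. The means were 0.415 ± 0.186 and 0.857 ± 0.235 CPM (SD, n = 4), with a log2 fold change of 1.09 ± 0.28 (SE, adjusted p = 0.00355). In batch 1 alone it was 0.75 and did not pass the test (adjusted p = 0.132), in batch 2 it was 1.55 (adjusted p = 0.00744), and the difference between them did not pass the test (adjusted p = 0.676). Of 13 other acyl-CoA thioesterase genes 8 were tested, 3 were called higher and 1 lower, with a median log2 fold change of -0.00. Acot11 rose from 8.72 ± 1.64 CPM to 15.4 ± 1.75 CPM (mean ± SD of 4 libraries), by 0.83 on the log2 scale (adjusted p = 1.04e-09), Acot9 rose by 0.35 (adjusted p = 0.000117), and Acot2, a mitochondrial form, fell by 0.18 (adjusted p = 0.00872). Acot13, the highest per length, had -0.08 (adjusted p = 0.149).

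Oat, the mitochondrial ornithine aminotransferase that links arginine and proline metabolism, varied with the batch (ENSMUSG00000030934, chr7:132557478-132576398, minus strand). The control libraries had 1.64, 1.29, 2.21 and 3.05 CPM and the Klf4 libraries 1.74, 2.01, 2.61 and 2.54 CPM. As in Ldha, the libraries of batch 2 were all above those of batch 1, and the groups overlapped. The log2 fold change of 0.14 ± 0.15 (SE, adjusted p = 0.528) was 0.35 in batch 1 and -0.02 in batch 2. Single libraries moved it, to 0.03 without control replicate 2, 0.06 without control replicate 3 or Klf4 replicate 2, and 0.29 without control replicate 4, with no call in any of them. Of 12 listed genes of ornithine and proline metabolism 10 were tested, 4 were called higher and 3 lower, with a median of 0.15. Ass1, argininosuccinate synthase, rose by 0.31 (adjusted p = 2.05e-06). Aldh18a1, which makes the same proline precursor as Oat, fell by 0.18 (adjusted p = 5.92e-05), and Odc1, ornithine decarboxylase and the highest of the list per length, by 0.12 (adjusted p = 0.000227).

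Igfbp4, a secreted protein that binds insulin-like growth factors (IGF), stayed within a narrow range (ENSMUSG00000017493, chr11:99041244-99054392, plus strand). Its control libraries had 14.4, 13.3, 13.8 and 13.7 CPM and its Klf4 libraries 14.5, 15.6, 14.3 and 14.3 CPM. Within each batch the Klf4 libraries were above the controls, but the pooled groups overlapped, and the log2 fold change of 0.09 ± 0.06 (SE) did not pass the test (adjusted p = 0.260). It was 0.11 in batch 1 and 0.07 in batch 2. Leaving out control replicate 2 gave 0.04 and leaving out Klf4 replicate 2 gave 0.05. Another binding protein, Igfbp6, rose from 3 to 2740 summed counts, a ratio of 873 with a 95% counting interval of 298 to 4235.5 (log2 fold change 9.54, adjusted p = 2.39e-19). Igfbp6 passed the filter only through the Klf4 libraries. Of 15 other genes of the IGF system 13 were tested, 3 were called higher and 2 lower, with a median of 0.02. Igf2, a ligand, rose by 0.17 (adjusted p = 0.00309). Stc2, an inhibitor of the protease that cleaves Igfbp4, fell by 0.34 (adjusted p = 0.0227). That call was lost in 4 of 19 alternatives, among them the fit without Klf4 replicate 1 (adjusted p = 0.0648) and each batch alone. Pappa2, a protease of IGF-binding proteins and the highest of the list per length, had -0.08 (adjusted p = 0.0358), a call lost in 10 of 19 alternatives. Among these were the replicate number as a block (adjusted p = 0.0646), no batch term (adjusted p = 0.716), factors from highly expressed genes (adjusted p = 0.302) and the fits without control replicates 2 or 4 or without Klf4 replicates 1, 2 or 4 (adjusted p = 0.0554 to 0.0717).

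Maf, the c-Maf transcription factor of α-cells and lymphocytes, was near the limit of detection (ENSMUSG00000055435, chr8:115682942-115707794, minus strand). It had 18, 12, 5 and 5 counts in the control and 9, 8, 9 and 12 in the Klf4 libraries, 40 and 38 in all. The control libraries of batch 1 were above and those of batch 2 below the Klf4 libraries of their batch, and no direction held over both. The ratio of summed counts was 0.908, with a 95% interval of 0.567 to 1.45 for counting error only. The interval leaves out the spread between libraries, so it does not set the size of change that could go undetected. It did not pass the filter in the fit over all libraries. With no filter its log2 fold change was -0.05 (adjusted p = 0.973), in the 5 fits without 1 library in which it passed the filter it lay between -0.26 and 0.14, and in batch 1 alone it was -0.83 (adjusted p = 0.336). Of its exons, 440 bases overlap Gm15655 on the other strand. Of 6 other genes of the MAF family 5 were tested, 2 were called higher and 2 lower, with a median log2 fold change of 0.43. Mafa, the large Maf factor of mature β-cells, fell by 0.18 (adjusted p = 0.000660). The small Maf factors Mafk and Maff rose by 0.95 and 0.59 (adjusted p = 1.09e-10 and 6.05e-10), and Mafg fell by 0.17 (adjusted p = 0.000146).

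Mgst1, a membrane-bound glutathione transferase, had 0 counts in all 8 libraries, out of 395821768 counts (ENSMUSG00000008540, chr6:138140316-138156755, plus strand). A count of 0 allows a level of up to 0.0569 to 0.0663 CPM in a library, taken as 3 counts. This was not rare among protein-coding genes, of which 3449 of 22028, or 15.7%, had no count in any library. Its relative Mgst3 was measured and rose, from 6.53 ± 0.668 CPM to 22.9 ± 2.50 CPM (mean ± SD of 4 libraries), by 1.80 ± 0.08 SE on the log2 scale (adjusted p = 1.61e-14), with all 4 Klf4 libraries above all controls. Of 21 other glutathione transferases and relatives 16 were tested, 5 were called higher and 5 lower, with a median of -0.06, and Gstk1 had no count. Gstt2 fell by 0.22 (adjusted p = 0.00976), and Gstm1, the highest per length, fell by 0.10 (adjusted p = 0.00747). Gsta4 had 0.24 (adjusted p = 0.0471), a call lost in 11 of 19 alternatives; without control replicate 1 it was 0.14 (adjusted p = 0.232).

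The members were also set beside 12 further genes that have been listed as disallowed in β-cells. Of these, 9 were tested, 5 were called higher and 0 lower, with a median log2 fold change of 0.35. DESeq2 called 3 higher and 0 lower, and 0 were lower at an unadjusted p under 0.05 (edgeR). Across all tested genes 21.1% were called higher and 15.5% lower. The list was chosen with earlier results of these data known, so this split describes these genes and is not a result about disallowed genes. Tgm2, a transglutaminase, had 1.72, 2.01, 1.14 and 1.26 CPM in the control and 22.5, 22.8, 31.1 and 35.8 CPM in the Klf4 libraries (log2 fold change 4.18 ± 0.14 SE, adjusted p = 7.87e-17, exons overlapping Rprd1b). Lmo4, a LIM-domain co-regulator, rose by 0.44 (adjusted p = 3.48e-07) and Ndrg2 by 0.35 (adjusted p = 0.00236). Rest, the repressor of neuronal genes, rose by 0.30 (adjusted p = 0.0268), and that call was lost in 8 of 19 alternatives, among them the fits without control replicate 2 or without Klf4 replicates 1, 2 or 3 (adjusted p = 0.0609 to 0.126). Smad3, the highest of them per length, had 0.08 (adjusted p = 0.154), and 0.11 with factors from highly expressed genes, where it was called (adjusted p = 0.0435).

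Of 7 chromatin enzymes and microRNA-pathway genes that have been reported to hold disallowed genes down, all were tested, 1 was called higher and 4 lower, with a median of -0.11. Of all tested genes 15.5% were called lower. Suz12 and Ezh2, both of the Polycomb complex that methylates histone H3, moved in opposite directions, Suz12 from 134 ± 3.88 to 117 ± 4.29 CPM (log2 fold change -0.20, adjusted p = 4.04e-05) and Ezh2 from 79.3 ± 1.62 to 90.4 ± 1.81 CPM (0.19, adjusted p = 3.80e-05; SD, n = 4). Ago2, which carries microRNAs, fell by 0.18 (adjusted p = 0.000414) and Dicer1, which makes them, by 0.12 (adjusted p = 0.00697). Dnmt1, the highest per length, had -0.01 (adjusted p = 0.905). With scaling factors from highly expressed genes it had 0.03, and the calls of Dicer1 (adjusted p = 0.0621) and of Gstm1 above (adjusted p = 0.0873) were lost. Each of these calls was lost in 3 of 19 alternatives in all. Pdgfa, Acot11, Igf2, Mafg, Mafk, Suz12, Ezh2 and Ago2 share exon bases with a neighbouring gene, so their counts are uncertain in the same way as those named above with an overlap.

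**Figure D4:**
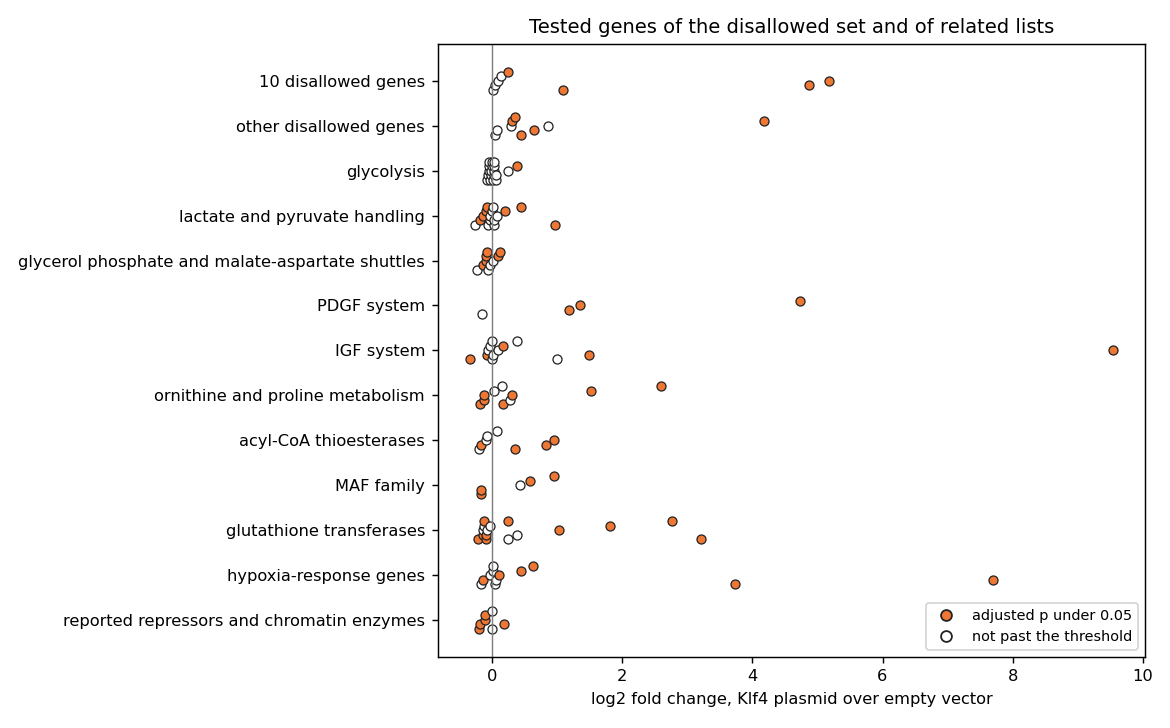
Log2 fold change of the Klf4 plasmid over the empty vector (horizontal axis) of every tested gene of the 10 disallowed genes and of the related lists (1 row each), orange where the adjusted p is under 0.05 and white where it is not. Most points lie near 0, glycolysis has 1 called gene of 19, and the points beyond 4 are Hk2, Pdgfra, Tgm2, Pdgfb, Igfbp6 and Epas1; the Epas1 value rests on 0 control counts and has no fixed size.

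Genes whose level followed the same pattern over the 8 libraries were sought for the 3 members that rose most, among the 10485 genes whose mean log2 CPM was 3 or more. The measure was Pearson's r of log2 CPM, and since all libraries share the plasmid difference it is a description only. For Hk2 the closest were Arvcf (r = 0.998), Efnb1 (0.997) and Adgrb1 (0.996), and 29 genes reached 0.99. They differ widely in size, from 31.0 to 42.8 CPM for Arvcf to 0.0883 to 29.4 CPM for Adgrb1 between the group means. For Pdgfra the closest were Vsig10l (0.996), B4galt5 (0.994) and Lrrc8b (0.991), and for Acot7 they were Atp2b4 (0.979), Nuak2 (0.977) and Tmem198 (0.974).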

How the data were processed

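The data were RNA-seq counts of MIN6 cells, 4 libraries per plasmid, in 2 batches named in the labels. The authors deposited whole-number counts per gene, 1 column per library, not normalised or pooled. Per the submitters' processing notes the tools were FastQC, STAR, featureCounts and edgeR with the build mm10; their versions and the strand setting are not given in the sources used here. All 55536 identifiers and symbols were those of GENCODE M21 (GRCm38), which gave positions, exon lengths and overlaps. Total depth was 45417853 to 52731176 counts per library.

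The fits used edgeR 4.0.16, limma 3.58.1 and R 4.3.3. filterByExpr with a minimum count of 10 kept 18266 genes, TMM factors were applied, and terms for batch and plasmid were fitted with glmQLFit and tested with edgeR's quasi-likelihood test, a design taken from the series' text. P-values were adjusted by Benjamini-Hochberg over all tested genes. The SE was derived from the log2 fold change and its F statistic. CPM and CPM per kb of exon were computed from the deposited counts. Intervals of ratios of summed counts are exact, at 95%, and cover counting error only. P-values of the fits set an effect against the spread between these samples that batch and plasmid leave. The fits were tested on simulated data. Promoter windows of 250 bases came from RefSeq.

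The members and lists were chosen with earlier results of these data known. Counts of calls in a list describe its genes and are not results about the list. They stand beside 21.1% called higher and 15.5% called lower among all tested genes. In each related list the named genes were the 4 of largest change among those called whose mean log2 CPM was 1 or more, and the highest per length. For Hk2, Pdgfra and Acot7, the 3 genes of highest r were named. Some listed genes are not reported here one by one but stay within the counts over their lists. Replicate numbers in the sample titles run alike in both groups, and the titles state no pairing. Deviations from group means of same-numbered libraries had correlations of 0.61, 0.46, 0.57 and 0.52 over 10485 genes. Other numbers of the same batch gave 0.459 to 0.574, so these values do not set a pairing by number apart from a shared batch. A block on the number was an alternative, besides no batch term, DESeq2 size factors, total counts, factors from highly expressed genes (mean log2 CPM of 6 or more), DESeq2 1.42.0, limma-voom, other filters, stricter calls, single batches and each library left out. Libraries of one group differed beyond sampling noise (chi-square per degree of freedom 3.96 to 21.1). Figures and exact tests used Python 3.11.15.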

Additional observations from a re-analysis of the deposited data

Results flagged for a closer look

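Of 124 checks of whether 1 library stood apart from the other 3 of its group by Dixon's criterion, 5 singled out a library. The criterion would give about 6.2 by chance if the libraries of a group were interchangeable and the checks independent. Each group holds libraries of 2 batches and the genes share libraries, so the number chance gives in this design is not known. Among the members, Igfbp4 had 15.6 CPM in Klf4 replicate 2, with the other Klf4 libraries at 14.3 to 14.5, and Maf had 0.228 CPM in Klf4 replicate 4, with the others at 0.171 to 0.177. Acot9 had 17.7 CPM in Klf4 replicate 1 (others 14.7 to 15.0) and Suz12 had 124 CPM in Klf4 replicate 3 (others 114 to 116). Klf4 replicate 2 had 45417853 total counts, and the other Klf4 libraries had 51891997 to 52731176.

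The plasmid effect of 4 of the 62 genes checked differed between batches by the interaction term (edgeR, adjusted over all tested genes), none of them a member. The interaction term, batch 2 minus batch 1 on the log2 scale, was 0.37 for Klf4 itself (6.78 and 7.17, adjusted p = 0.0057) and 1.20 for Tgm2 (3.59 and 4.81, adjusted p = 0.00106). The paired values in brackets are from separate fits of batch 1 and batch 2, so their difference need not equal this term. It was 0.48 for Mafk (0.71 and 1.20, adjusted p = 0.00325) and -0.25 for Mafa (-0.06 and -0.29, adjusted p = 0.00817).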

How the results depend on the processing

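The 4 member calls (Slc16a1, Hk2, Pdgfra and Acot7) were kept in all 8 fits that left out 1 library, with the replicate number as a block, under 3 other scalings, in DESeq2 and in limma-voom. The filter at 1 CPM left 2 calls, since Acot7 and Pdgfra were not tested there. In batch 1 alone Acot7 had 0.75 (adjusted p = 0.132). The small effects changed sign: Ldha ranged from -0.10 to 0.14 over the fits without 1 library and had -0.062 in batch 2 alone, Hk1 ranged from -0.0096 to 0.00995 and had -0.0019 with no filter, and Oat had -0.018 in batch 2 alone. Over all genes 6684 were called, 4116 with no batch term and 2317 with a log2 fold change of at least 0.5. Of these 2828 were lower, against 1159 with no batch term, 1638 with factors from highly expressed genes, 1583 in batch 1 alone and 1804 in batch 2 alone. The higher share of the calls was 57.7%, 71.8% with no batch term, 72.8% with factors from highly expressed genes, 65.0% in batch 1 alone and 67.4% in batch 2 alone. Calls of a difference between batches (140) ranged from 48 to 261 over the fits without 1 library, with 261 without control replicate 1, 78 and 77 without control replicates 3 and 4, 82 without Klf4 replicate 1 and 48 without Klf4 replicate 2. The cause of these shifts was not tested.

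The replicate block lost the calls of Slc16a3 (adjusted p = 0.0715) and Pappa2 (adjusted p = 0.0646), called 6284 genes, and changed no member call. Of 51 named genes of the related lists 48 had no change of sign in any alternative and 21 kept their direction and side of the threshold in all of them. The exceptions to the first were Pkm (0.0012 in batch 1 alone, and called lower in 4 other alternatives), Bsg (-0.0303 to 0.0395 over the fits without 1 library, -0.021 in batch 2 alone) and Dnmt1 (0.0301 with factors from highly expressed genes, 0.0056 with the filter at 1 CPM, 0.0019 in batch 2 alone). Depth limits the lowest genes: Maf was below the filter of the reported fit and had no call in the 7 alternatives that tested it, Mgst1 had no count, and the sizes for Hk2 and Pdgfra rest on 24 and 5 control counts.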

Other observations

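The genes on either side of Mgst1, which had no count, also had few counts. Slc15a5, 60400 bases away, had 0 to 5 counts per library and 12 in all. Lmo3, 206163 bases away on the other side, had 0 to 5 counts and 16 in all. Neither passed the filter on low counts. Such low levels were common: of the 55536 genes listed, 33674 had a count in at least 1 library and 18266 were tested. Whether this region differs from others in its level was not tested.

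A few low genes of the related lists, outside the rule for naming and chosen after their values were seen, rose beside the members. Arg1, the arginase that makes ornithine, had 0.231 ± 0.176 CPM in the control and 1.39 ± 0.248 CPM in the Klf4 libraries (SD, n = 4), higher by 2.60 on the log2 scale (edgeR, adjusted p = 8.34e-07). Prodh, which breaks down proline, went from 0.801 ± 0.128 to 2.29 ± 0.285 CPM (log2 fold change 1.52, adjusted p = 4.65e-07). Ptges, a prostaglandin E synthase related to Mgst1, went from 0.311 ± 0.101 to 2.12 ± 0.315 CPM (log2 fold change 2.77, adjusted p = 5.91e-10). In each of the 3 all Klf4 libraries lay above all controls.

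The summed levels of the other marker lists, whose part in the results was not tested, were as follows. Duct markers (2 of 3 tested called higher) summed to 54.1 to 84.5 CPM in the control and 69.6 to 107 CPM in the Klf4 libraries. Krt19, a duct keratin, rose from 46 to 661 summed counts. Macrophage and leukocyte markers (0 of 3 called, 0 at an unadjusted p under 0.05, edgeR, and 0 by DESeq2) summed to 6.39 to 7.06 and 6.48 to 8.13 CPM. The α-cell markers (2 of 4 tested called higher) summed to 589 to 710 CPM in the control and 603 to 705 CPM in the Klf4 libraries. The δ-cell markers (1 tested, which did not pass the test) summed to 1.47 to 2.12 and 1.83 to 2.39 CPM, and the PP-cell marker, not tested, had 0 to 0.276 and 0.0570 to 0.213 CPM. Acinar markers (0 of 2 called, 0 at an unadjusted p under 0.05 and 0 by DESeq2, with Prss2 at 0) summed to 11.1 to 13.3 and 10.3 to 14.5 CPM.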
